A study of Rattus norvegicus with 6 samples.

Results

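A set of 10 genes of transforming growth factor beta (TGF-beta) signalling were followed in cultured neonatal rat ventricular cardiomyocytes. They were chosen by gene symbol, with earlier results of these data known. They comprise the ligand genes Tgfb1, Tgfb2 and Tgfb3, the receptor genes Tgfbr1 and Tgfbr2, the coreceptor genes Tgfbr3 and Eng, the signal transducer gene Smad3, and the inhibitory genes Smad6 and Smad7. Each symbol matched 1 of the 34510 genes in the deposited table, so all 10 could be followed, and all 10 passed the filter on low values. Poly(A) RNA was sequenced in 3 libraries of a group named Trim28 and 3 of a group named Bgal. Per the series' design text, the tested cells received an adenovirus that carries TRIM28, a chromatin corepressor, in a study of ferroptosis, a death of cells driven by iron and lipid peroxidation. The labels do not expand Bgal, and they name neither the virus given to the Bgal cells nor the promoter, dose, duration, age in days or batch. All 6 libraries are labelled as the same cell type. Nothing says that they came from separate animals or cultures, so the p-values measure the spread between these libraries, which may be technical.

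TGF-beta ligands are secreted as latent dimers held in the matrix by binding proteins and are freed by integrins, proteases and thrombospondin. An active ligand brings together the type II receptor, encoded by Tgfbr2, and the type I receptor, encoded by Tgfbr1, and the coreceptors betaglycan (Tgfbr3) and endoglin (Eng) help to present it. The type I receptor phosphorylates SMAD2 and SMAD3, which enter the nucleus with SMAD4, while SMAD6 and SMAD7 block the receptors or the other SMADs and are themselves induced by the pathway and by bone morphogenetic proteins (BMPs). In the heart the pathway is best known for activating fibroblasts and for matrix production.

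Of the 10 genes, 9 were higher in the Trim28 libraries, and for each of those 9 every Trim28 value lay above every Bgal value, which held for 26% of all genes tested. Against a background in which 20.1% of the 14808 genes tested rose, and 41.2% passed in either direction, 9 of these 10 rose and 0 fell, in limma on log2(FPKM + 1) with Benjamini-Hochberg adjustment over all 14808 genes and a threshold of 0.05. FPKM, the deposited unit, is fragments scaled to the length of the gene and the size of the library. The median log2 change of the 10 was 0.71, against -0.02 over all genes tested. As the genes were chosen with earlier results known, these comparisons are a description. Tgfb2, Tgfb3 and Eng had about 2.5 times the FPKM of the Bgal libraries, Smad6 and Smad7 close to 2 times, and Tgfb1, Tgfbr2, Tgfbr3 and Smad3 between 1.35 and 1.5 times. Tgfbr1 was the 1 member with overlapping groups. Folds without further wording are ratios of mean FPKM, and log2 changes are of FPKM + 1, which understates the change of low genes.

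**Figure D1:**
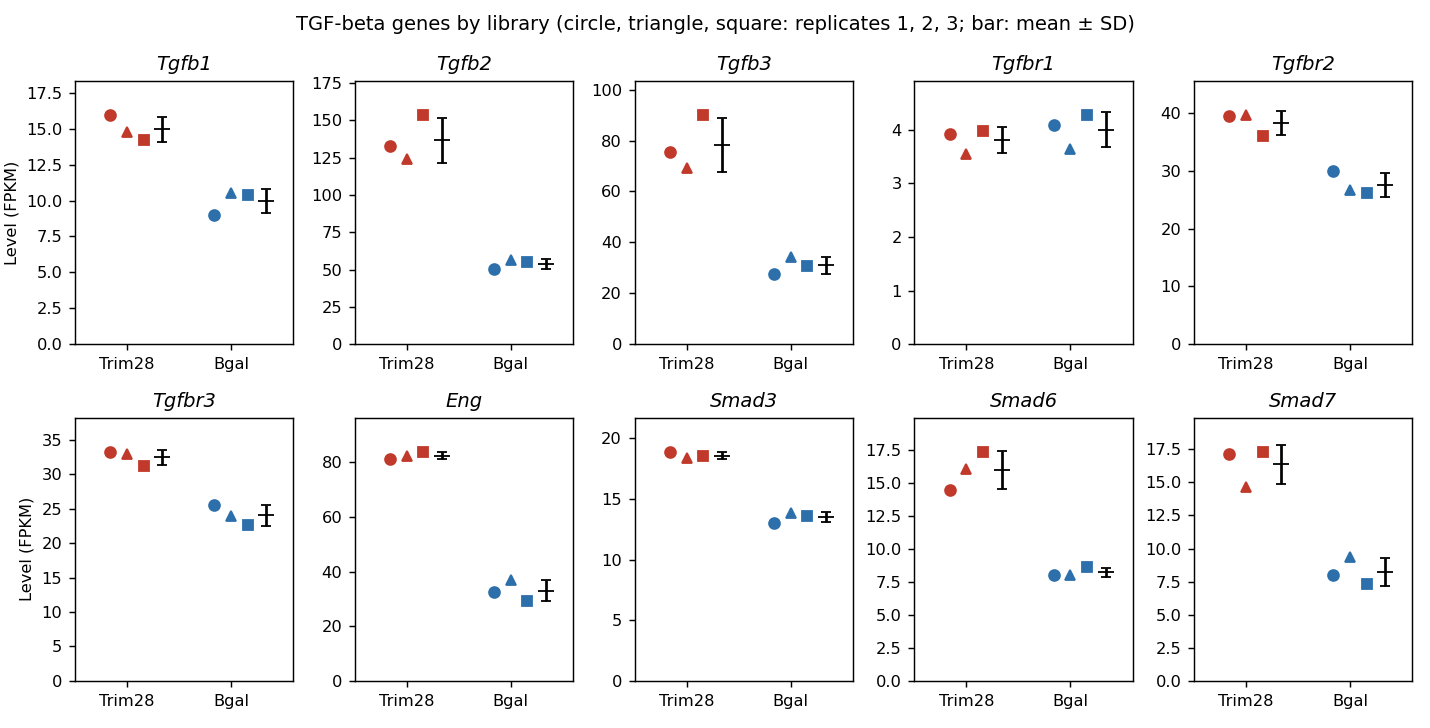
FPKM of each of the 10 genes (vertical axis, from 0) in the 3 Trim28 libraries (red, left) and the 3 Bgal libraries (blue, right), with replicates 1, 2 and 3 as circle, triangle and square and the group mean ± SD as a black bar. Only Tgfbr1, at 3.54 to 3.98 FPKM in Trim28 libraries and 3.65 to 4.27 FPKM in Bgal libraries, shows overlapping groups.

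The promoters of 5 of the genes are given so that the start regions of the genes that rose most can be read beside the 1 that did not pass. RefSeq windows of 300 bases, from 250 before to 50 after the annotated start on build GRCr8, were matched by symbol for 9 of the 10 members, all but Smad6. Lower case is used throughout except for capitals that mark the SMAD box AGAC (or GTCT on the other strand) and the GC box GGGCGG (or CCGCCC). Each window is written 5′ to 3′ on the strand of its gene.
Tgfb2, chr13:100792636-100792935, minus strand: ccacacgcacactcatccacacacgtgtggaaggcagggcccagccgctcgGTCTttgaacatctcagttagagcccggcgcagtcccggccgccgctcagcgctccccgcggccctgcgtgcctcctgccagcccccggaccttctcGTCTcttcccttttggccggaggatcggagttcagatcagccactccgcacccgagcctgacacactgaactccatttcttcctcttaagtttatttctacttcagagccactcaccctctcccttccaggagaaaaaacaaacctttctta
Tgfb3, chr6:111456897-111457196, minus strand: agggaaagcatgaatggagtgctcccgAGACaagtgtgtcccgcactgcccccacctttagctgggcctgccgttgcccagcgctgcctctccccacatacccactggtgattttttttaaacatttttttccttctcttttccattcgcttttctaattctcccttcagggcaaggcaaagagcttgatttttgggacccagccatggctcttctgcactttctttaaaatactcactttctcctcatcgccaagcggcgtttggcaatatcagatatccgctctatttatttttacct
Eng, chr3:36332029-36332328, plus strand: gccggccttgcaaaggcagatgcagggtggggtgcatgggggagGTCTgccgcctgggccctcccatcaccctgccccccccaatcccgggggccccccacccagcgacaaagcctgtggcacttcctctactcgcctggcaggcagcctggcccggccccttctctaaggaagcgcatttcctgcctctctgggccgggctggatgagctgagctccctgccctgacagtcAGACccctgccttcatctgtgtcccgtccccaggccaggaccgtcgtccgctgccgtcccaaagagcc
Smad7, chr18:71263258-71263557, plus strand: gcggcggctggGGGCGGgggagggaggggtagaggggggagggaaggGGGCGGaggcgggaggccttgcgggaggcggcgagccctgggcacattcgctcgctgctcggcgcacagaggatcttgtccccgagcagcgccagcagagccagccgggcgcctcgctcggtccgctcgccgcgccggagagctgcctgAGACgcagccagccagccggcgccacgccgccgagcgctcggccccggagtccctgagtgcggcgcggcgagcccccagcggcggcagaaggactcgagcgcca
Tgfbr1, chr5:66449148-66449447, plus strand: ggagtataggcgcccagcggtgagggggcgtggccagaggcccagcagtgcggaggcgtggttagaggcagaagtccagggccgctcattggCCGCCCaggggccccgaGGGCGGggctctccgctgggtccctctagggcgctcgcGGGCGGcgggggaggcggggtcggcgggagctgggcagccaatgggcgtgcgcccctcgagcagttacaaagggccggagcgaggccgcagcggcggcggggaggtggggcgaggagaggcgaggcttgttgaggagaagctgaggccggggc
AGAC or GTCT stood in 7 of the 9 windows, and in 88.8% of all 33469 windows of that length. The windows without it were those of Tgfbr1 and Tgfbr2, of which Tgfbr2 rose. GGGCGG or CCGCCC stood in 5 of the 9 windows, against 33.1% of all windows, with 3 copies at Tgfbr1 and 2 at Smad7 and none at Tgfb1, Tgfb2, Tgfb3 or Eng. The windows with it were 59% to 77.7% G or C, against a median of 51.7% over all windows, so the 2 shares are not from like sequences. The motifs can share 1 base, and none did so in the windows shown. A match of letters is a description and no evidence of binding.

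Tgfb2, the most abundant of the ligand genes here, rose (ENSRNOG00000002418, chromosome 13, 105039853 to 105141030, minus strand, in the coordinates of the deposited table, for which no build is named and which cannot be set beside the GRCr8 windows). It had 132, 124 and 153 FPKM in Trim28 replicates 1 to 3, against 50.2, 56.2 and 55.1 FPKM in Bgal replicates 1 to 3. All Trim28 libraries were more than 2 times above the highest Bgal library. The means were 137 ± 15.0 FPKM in Trim28 libraries and 53.8 ± 3.18 FPKM in Bgal libraries (SD, n = 3 each), which is 2.54-fold and a log2 change of 1.32 (SE 0.08, limma adjusted p = 7.96e-05). Of all genes tested, 0.567% had a larger rise. A small nucleolar RNA entry lies within Tgfb2 on the opposite strand at under 1 FPKM, and no other member overlaps another entry of the table.

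Tgfb3, the ligand gene known from mesenchymal and valve development, rose by a like factor (ENSRNOG00000009867, chromosome 6, 109913757 to 109935533, minus strand). Its values were 75.5, 69.1 and 89.9 FPKM in the Trim28 libraries, against 27.7, 34.3 and 30.9 FPKM in the Bgal libraries. Replicate 3 was the highest of the Trim28 libraries for Tgfb3 as it was for Tgfb2. Mean FPKM was 78.2 ± 10.7 in Trim28 libraries and 31.0 ± 3.33 in Bgal libraries, 2.52-fold, and the log2 change was 1.31 (SE 0.11, limma adjusted p = 0.000192).

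Tgfb1, the ligand gene best known for fibrosis and for immune control, rose less (ENSRNOG00000020652, chromosome 1, 82480195 to 82497199, plus strand). The Trim28 libraries had 15.9, 14.8 and 14.2 FPKM, and the Bgal libraries 9.01, 10.5 and 10.4 FPKM. The groups did not overlap, and both were the lowest of the ligand genes per length. The means were 15.0 ± 0.872 FPKM in Trim28 libraries and 9.97 ± 0.827 FPKM in Bgal libraries, 1.5-fold, with a log2 change of 0.54 (SE 0.08, limma adjusted p = 0.00147).

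The summed FPKM of the 3 ligand genes was 224, 208 and 257 in the Trim28 libraries and 86.9, 101 and 96.3 in the Bgal libraries, 2.42-fold in the mean. Tgfb1 made up 6.58% ± 0.917 of that sum in Trim28 libraries and 10.5% ± 0.225 in Bgal libraries. Tgfb2 made up 59.5% ± 0.282 in Trim28 libraries and 56.9% ± 1.12 in Bgal libraries, and Tgfb3 34.0% ± 0.885 in Trim28 libraries and 32.6% ± 1.19 in Bgal libraries (SD, n = 3 each). The share of Tgfb1 was lower and that of Tgfb2 higher in every Trim28 library than in any Bgal library, while the shares of Tgfb3 overlapped. In exact two-sided permutation tests over the 6 libraries p was 0.1 for Tgfb1, 0.1 for Tgfb2 and 0.3 for Tgfb3, or 0.15, 0.15 and 0.3 after Benjamini-Hochberg adjustment over the 3 shares. With 3 against 3 libraries 0.1 is the smallest p that can be reached, so no share could pass. By FPKM, the order of the ligand genes was Tgfb2, then Tgfb3, then Tgfb1 in all 6 libraries.

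**Figure D2:**
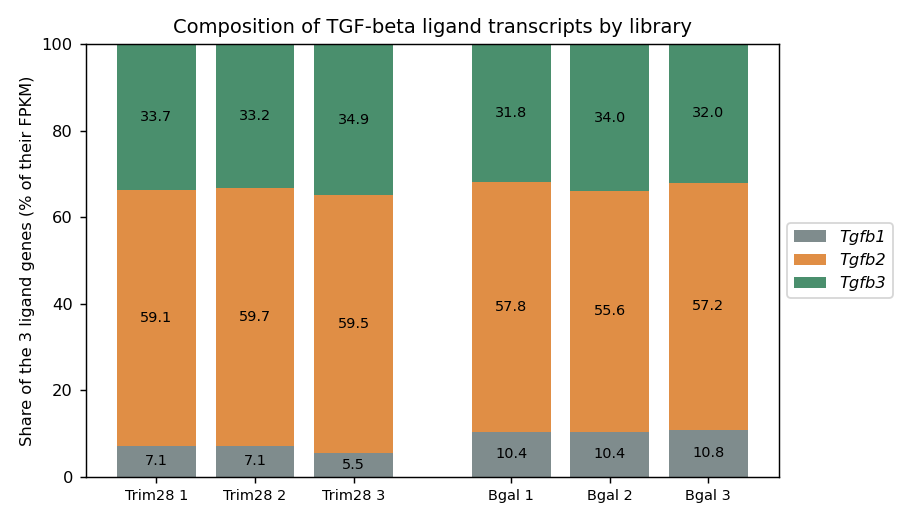
Share of Tgfb1, Tgfb2 and Tgfb3 in their summed FPKM (stacked bars, percent) in each library, with the 3 Trim28 libraries left of the 3 Bgal libraries. Tgfb1 takes 5.52% to 7.11% in Trim28 libraries and 10.4% to 10.8% in Bgal libraries.

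The receptor genes did not move together. Tgfbr1, the type I receptor that phosphorylates SMAD2 and SMAD3 (ENSRNOG00000007036, chromosome 5, 63050758 to 63119635, plus strand), stood at 3.92, 3.54 and 3.98 FPKM in the Trim28 libraries and 4.10, 3.65 and 4.27 FPKM in the Bgal libraries. It was the lowest of the 10 genes per length in both groups, and its ranges overlapped between 3.65 and 3.98 FPKM. The log2 difference was -0.06 with a 95% confidence interval of -0.26 to 0.15 (limma adjusted p = 0.647), which leaves room for a small change in either direction. Its depth was 545 to 861 reads per library.

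Tgfbr2, the type II receptor that binds ligand first, rose (ENSRNOG00000013265, chromosome 8, 124312754 to 124399494, minus strand). It had 39.5, 39.7 and 36.0 FPKM in the Trim28 libraries against 30.0, 26.8 and 26.1 FPKM in the Bgal libraries. The 2 ranges were separate, with replicate 3 the lowest of the Trim28 libraries. The means of 38.4 ± 2.07 FPKM in Trim28 libraries and 27.6 ± 2.05 FPKM in Bgal libraries gave 1.39-fold and a log2 change of 0.46 (SE 0.07, limma adjusted p = 0.00165).

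Tgfbr3 encodes betaglycan, a coreceptor that is needed most for TGF-beta 2, which binds the type II receptor poorly on its own (ENSRNOG00000002093, chromosome 14, 3506339 to 3682545, plus strand). It rose by the smallest factor of the 9, with 33.2, 33.0 and 31.2 FPKM in the Trim28 libraries and 25.6, 24.0 and 22.6 FPKM in the Bgal libraries. The groups did not overlap. Means of 32.5 ± 1.08 FPKM in Trim28 libraries and 24.1 ± 1.52 FPKM in Bgal libraries correspond to 1.35-fold and a log2 change of 0.42 (SE 0.06, limma adjusted p = 0.0014).

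Eng encodes endoglin, a coreceptor best known from endothelial cells and also made by activated fibroblasts and mural cells (ENSRNOG00000050190, chromosome 3, 11679530 to 11717485, plus strand). The Trim28 libraries had 81.0, 82.3 and 83.7 FPKM, closely spaced, and the Bgal libraries 32.6, 37.0 and 29.3 FPKM. Every Trim28 library was more than 2 times above the highest Bgal library. This was a log2 change of 1.30 (SE 0.08, limma adjusted p = 7.32e-05), and 0.628% of all genes tested rose more. Among the endothelial markers, Cdh5, the cadherin of endothelial junctions, stood at 0.199 to 0.454 FPKM in Trim28 libraries and 0.377 to 0.573 FPKM in Bgal libraries. Cldn5, a tight junction gene, was listed at 0 in all 6 libraries, and Vwf, the von Willebrand factor gene, was at 0.0947 to 0.142 FPKM in Trim28 libraries and 0.0764 to 0.0923 FPKM in Bgal libraries. Other genes of that list did change. Flt1, a receptor of vascular endothelial growth factor, had 2.18 to 2.67 FPKM in Trim28 libraries and 0.750 to 1.09 FPKM in Bgal libraries, and rose 2.80-fold (limma adjusted p = 0.0011). Tek, the angiopoietin receptor, had 2.14 ± 0.35 FPKM in Trim28 libraries and 1.23 ± 0.09 FPKM in Bgal libraries, and rose 1.73-fold (limma adjusted p = 0.0132). Kdr, another growth factor receptor of that list, fell to 5.89 to 6.38 FPKM in Trim28 libraries, against 7.40 to 8.68 FPKM in Bgal libraries (limma adjusted p = 0.00934). The part of endothelial cells in the rise of Eng was not tested.

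The transducer Smad3 (ENSRNOG00000008620, chromosome 8, 68569530 to 68678349, minus strand) rose with little spread. Its values were 18.9, 18.3 and 18.5 FPKM in the Trim28 libraries and 13.1, 13.9 and 13.6 FPKM in the Bgal libraries. The gap between the groups was several times the spread within either. With means of 18.6 ± 0.267 FPKM in Trim28 libraries and 13.5 ± 0.405 FPKM in Bgal libraries the gene was 1.38-fold higher, and the log2 change was 0.43 (SE 0.05, limma adjusted p = 0.000685).

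Both inhibitory SMAD genes rose by more than Smad3. Smad6, which acts mainly on BMP receptors and SMAD1 (ENSRNOG00000009173, chromosome 8, 68898296 to 68966108, minus strand), had 14.5, 16.1 and 17.3 FPKM in the Trim28 libraries and 8.04, 7.99 and 8.64 FPKM in the Bgal libraries. Its Trim28 values lay well apart from the Bgal values, and its depth was 318 to 682 reads per library. The log2 change was 0.88 (SE 0.08, limma adjusted p = 0.000229). Smad7, which recruits ubiquitin ligases to the TGF-beta receptors (ENSRNOG00000018359, chromosome 18, 71395830 to 71424157, plus strand), had 17.2, 14.7 and 17.3 FPKM in the Trim28 libraries and 8.02, 9.34 and 7.30 FPKM in the Bgal libraries. The log2 change of Smad7 was 0.92 (SE 0.10, limma adjusted p = 0.000535), and its groups were also apart. Relative to Smad3, the sum of Smad6 and Smad7 was 1.74 ± 0.112 in Trim28 libraries and 1.22 ± 0.0388 in Bgal libraries, with an exact two-sided permutation p of 0.1, the smallest possible, also after adjustment over 5 such measures.

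**Figure D3:**
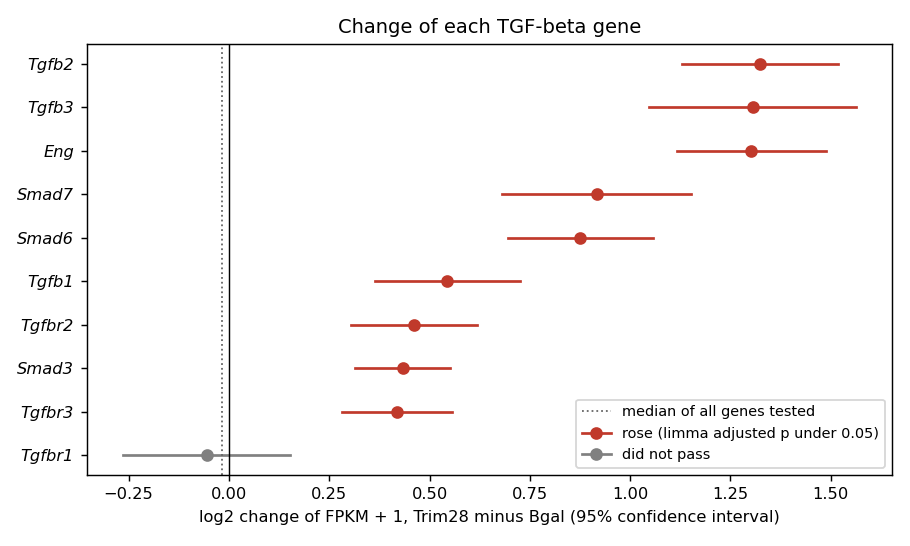
Log2 change of FPKM + 1 (horizontal axis, Trim28 minus Bgal) with its 95% confidence interval from limma for each of the 10 genes, ordered by size. Tgfb2, Tgfb3 and Eng lie between 1.30 and 1.32, the 9 red genes passed the threshold, and the interval of Tgfbr1 (grey) spans 0.

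Ordered by mean FPKM within the Trim28 libraries, the genes ran Tgfb2, Eng, Tgfb3, Tgfbr2, Tgfbr3, Smad3, Smad7, Smad6, Tgfb1 and Tgfbr1. Neighbours whose ranges over 3 libraries overlapped there were Eng with Tgfb3, Smad7 with Smad6, and Smad6 with Tgfb1. Among the Bgal libraries the order was Tgfb2, Eng, Tgfb3, Tgfbr2, Tgfbr3, Smad3, Tgfb1, Smad6, Smad7 and Tgfbr1, with overlaps between Eng and Tgfb3, Tgfb3 and Tgfbr2, and Smad6 and Smad7. The places that differ are those of Tgfb1, Smad6 and Smad7.

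The Trim28 libraries were not alike in the level of the delivered gene. Trim28 itself, the check of the labels, had 2923, 2890 and 980.0 FPKM in the Trim28 libraries and 77.6 to 87.8 FPKM in the Bgal libraries, so replicate 3 had 0.337 of the mean of replicates 1 and 2. For 6 members, Tgfb2, Tgfb3, Tgfbr1, Eng, Smad6 and Smad7, replicate 3 was the highest Trim28 library, and for 3, Tgfb1, Tgfbr2 and Tgfbr3, it was the lowest, with Smad3 between. Where it was highest it reached up to 1.24 times the mean of the other two libraries, for Tgfb3, and where it was lowest it was down to 0.909 times, for Tgfbr2. One library gives no test of this. Reads assigned to genes numbered 26146166 to 28298731 in Trim28 libraries and 28574951 to 34593292 in Bgal libraries.

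For Tgfb2, the member with the largest log2 change, the genes with the most similar log2 values over the 6 libraries were Sulf1, an extracellular sulfatase of heparan sulfate, Traf5, an adaptor of tumour necrosis factor receptors, Snap91, a clathrin adaptor, Ptpn9, a tyrosine phosphatase, and Socs5, a suppressor of cytokine signalling. Their Pearson correlations with Tgfb2 ran from 0.998 to 0.9998 over 6 libraries, which fall into the same 2 groups for every gene. Sulf1 had 14.9, 14.3 and 16.5 FPKM in the Trim28 libraries and 7.42, 8.18 and 7.90 FPKM in the Bgal libraries. As with Tgfb2, its highest value was in Trim28 replicate 3 and its lowest in Bgal replicate 1.

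The wider pathway was followed through 7 gene lists of 109 symbols, of which 94 were tested. Of these 94 genes 56 rose and 7 fell, beside backgrounds of 20.1% rising and 21.1% falling over all genes tested, with a median log2 change of 0.42. The lists too were chosen with earlier results of these data known, so the difference from the backgrounds is no independent evidence. The lists differed among themselves. Medians were high for latency genes, target genes and secreted ligands and antagonists, and 0.28 for BMP target genes. They were nearer to 0 for the other receptors (-0.03), the inhibitors (0.09) and the other SMAD genes and partners (0.11).

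**Figure D4:**
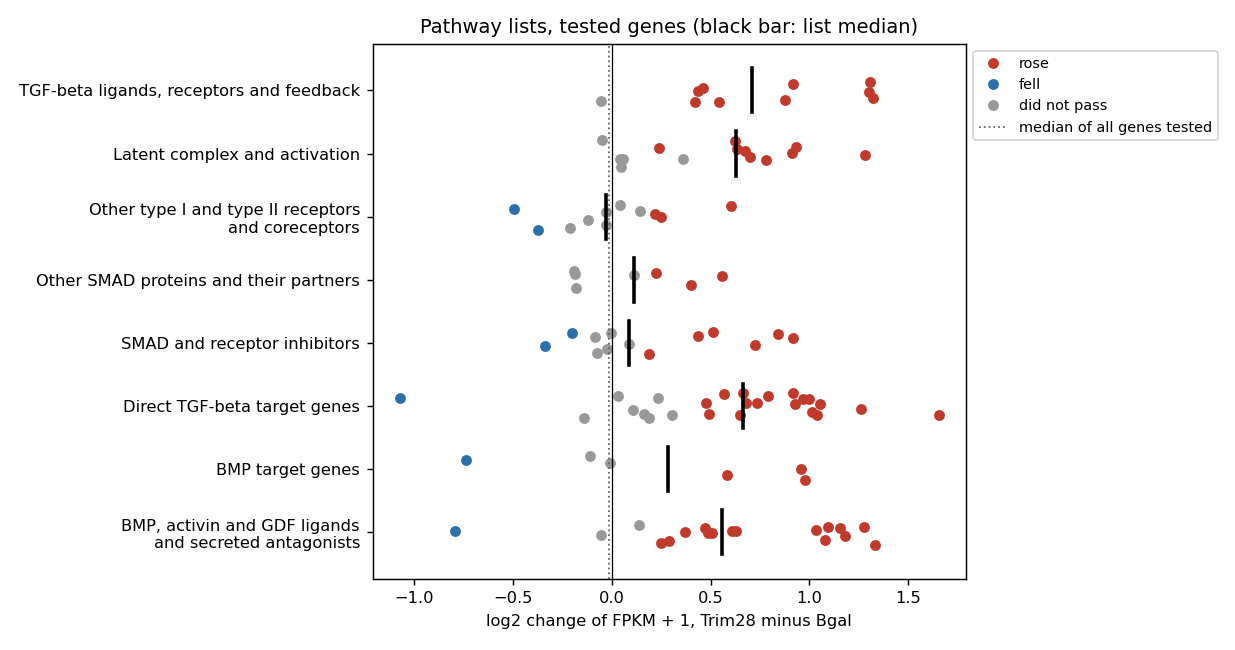
Log2 change of FPKM + 1 (horizontal axis, Trim28 minus Bgal) of each tested gene in the 10-gene set and the 7 pathway lists, with the list median as a black bar and the median of all genes tested as a dotted line. Red genes rose, blue genes fell and grey genes did not pass; the latency, target and ligand lists have medians of 0.56 to 0.67.

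Of 14 tested genes that store or free latent TGF-beta, 9 rose and 0 fell, with a median log2 change of 0.63. Over all genes tested the shares were 20.1% rising and 21.1% falling. Itgav, the integrin subunit that pulls ligand from its latent complex, rose to 76.1 ± 2.06 FPKM in Trim28 libraries, against 46.5 ± 2.17 FPKM in Bgal libraries. Among the integrin beta subunit genes of the list, Itgb1 rose 1.18-fold. Itgb3, Itgb5 and Itgb8 did not pass, at 1.05, 0.965 and 1.05 times the Bgal mean, and Itgb6 was not tested. Ltbp1 and Ltbp3, which tether latent ligand to the matrix, rose 2.01-fold and 1.65-fold. Thbs1, a thrombospondin that activates the latent form, rose 2.42-fold, with 211, 203 and 222 FPKM in Trim28 libraries and 78.8, 104 and 79.3 FPKM in Bgal libraries.

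Target genes of TGF-beta rose in 17 of 25 tested cases and fell in 1, beside 20.1% rising and 21.1% falling over all genes tested. The median log2 change was 0.67. Col1a1, a chain of type I collagen, had 388 ± 7.55 FPKM in Trim28 libraries and 192 ± 14.4 FPKM in Bgal libraries. Timp1, an inhibitor of matrix proteases, rose 2.09-fold and Lox, which crosslinks collagen, 2.50-fold. Tsc22d1, a transcriptional regulator first described as a TGF-beta-stimulated clone, was the 1 that fell, with 119, 113 and 122 FPKM in Trim28 libraries and 236, 270.1 and 243 FPKM in Bgal libraries (log2 change -1.07, limma adjusted p = 5.93e-05). Il11, an interleukin gene and 1 of the 17, met the low-value filter only by its Trim28 values. The filter thus favoured its rise, and its log2 change is the list median.

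Inhibitors of SMADs and receptors were mixed, with 6 of 13 higher and 2 lower and a median log2 change of 0.09. Among all genes tested 20.1% rose and 21.1% fell. Tgif1, a homeobox corepressor of SMADs, had 17.2 ± 0.665 FPKM in Trim28 libraries and 8.64 ± 0.439 FPKM in Bgal libraries. Ski and Skil, related SMAD corepressors, rose 1.82-fold and 1.38-fold, and Pmepa1, a membrane protein that holds SMADs away from the receptor, 1.66-fold. The 2 that fell, named after their values were seen, were the phosphatase gene Ppm1a, at 0.866 times, and the ubiquitin ligase gene Wwp1, at 0.785 times the Bgal mean.

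Other SMAD genes and partners showed 3 of 7 tested higher and 0 lower, with a median log2 change of 0.11. The background shares were 20.1% rising and 21.1% falling over all genes tested. Smad1 and Smad5, the transducers of BMP signals, rose 1.51-fold and 1.34-fold. Crebbp, a coactivator that acetylates histones, rose 1.18-fold, but its call was lost without Trim28 replicate 2, Bgal replicate 1 or Bgal replicate 3 (limma adjusted p = 0.0674 to 0.0782). Zfyve16, an endosomal scaffold for SMADs, stood at 9.26 ± 0.564 FPKM in Trim28 libraries and 10.7 ± 0.528 FPKM in Bgal libraries and did not pass (limma adjusted p = 0.0635). It passed in limma-voom on recovered reads (adjusted p = 0.0217) and with Trim28 replicate 3 left out (limma adjusted p = 0.0412).

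The other receptors of the superfamily, of which 3 of 11 tested rose and 2 fell, had a median log2 change of -0.03. These counts lie near the shares over all genes tested, 20.1% rising and 21.1% falling. Acvrl1, the type I receptor ALK1 that signals with endoglin, rose 1.69-fold, with 4.94, 4.82 and 5.39 FPKM in Trim28 libraries and 2.96, 2.95 and 3.04 FPKM in Bgal libraries. Bmpr1a, a BMP receptor, rose 1.16-fold. Rgma, a BMP coreceptor, fell to 66.9 ± 3.74 FPKM in Trim28 libraries, against 94.9 ± 6.46 FPKM in Bgal libraries, and Acvr1b, an activin receptor, to 21.2 ± 1.39 FPKM in Trim28 libraries, against 27.9 ± 2.47 FPKM in Bgal libraries.

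Secreted relatives of TGF-beta and their antagonists rose in 15 of 18 tested cases, and 1 fell, with a median log2 change of 0.56. Beside this list and the BMP target genes below, 20.1% of all genes tested rose and 21.1% fell. Bmp2 and Bmp4 rose 3.61-fold and 2.23-fold, Inhbb, an activin subunit, 3.48-fold, and Fstl1, a secreted follistatin-like glycoprotein, 1.53-fold. The 1 that fell was Gdf15, a stress-induced member of the family named here after its values were seen, at 23.5 ± 4.10 FPKM in Trim28 libraries and 41.9 ± 11.1 FPKM in Bgal libraries. Of 6 tested BMP target genes 3 rose and 1 fell, with a median of 0.28. Atoh8, Id1 and Id4, all helix-loop-helix genes, rose 2.16-fold, 1.51-fold and 2.09-fold, and Hamp, the hepcidin gene, fell to 41.1 ± 5.48 FPKM in Trim28 libraries, against 69.2 ± 9.34 FPKM in Bgal libraries.

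Genes listed as markers of other cells moved in the same libraries as these genes. The count of each marker list stands beside 20.1% rising and 21.1% falling over all genes tested. In bulk RNA, fewer cells of a type and less RNA per cell cannot be told apart. Of 10 fibroblast markers 9 rose and 0 fell, and their summed level was 738 to 799 FPKM in Trim28 libraries and 393 to 422 FPKM in Bgal libraries. Pdgfra, a fibroblast receptor, had 28.8 ± 1.69 FPKM in Trim28 libraries and 10.4 ± 0.144 FPKM in Bgal libraries. Of 10 smooth muscle and mural markers 8 rose and 1 fell, with sums of 2214 to 2450 FPKM in Trim28 libraries and 1345 to 1616 FPKM in Bgal libraries. Acta2 and Des made up most of these sums, with means of 1342 and 893 FPKM in Trim28 libraries and 692 and 692 FPKM in Bgal libraries. Whether the transcripts of this list came from mural cells or from the labelled cell type was not tested. Pdgfrb, a pericyte receptor, rose 2.00-fold. Abcc9 was the 1 that fell, to 21.5 ± 0.469 FPKM in Trim28 libraries, against 42.5 ± 3.31 FPKM in Bgal libraries. Rgs5 did not pass (limma adjusted p = 0.226). Kcnj8, 1 of the 8, met the low-value filter only by its Trim28 values. Of 11 matched leukocyte and macrophage markers 7 were tested and 7 rose, with sums of 66.1 to 67.6 FPKM in Trim28 libraries and 27.7 to 28.0 FPKM in Bgal libraries, and Cd3e was listed at 0 throughout. Adgre1, 1 of those 7, likewise met the filter only by its Trim28 values. The 11 matched endothelial markers summed to 15.4 to 16.5 FPKM in Trim28 libraries and 14.4 to 15.0 FPKM in Bgal libraries. Of the 5 tested among them, 2 rose and 1 fell. Kdr, the largest part of these sums, fell, with means of 6.06 FPKM in Trim28 libraries and 8.07 FPKM in Bgal libraries. Flt1 and Tek rose.

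Transcripts of the labelled cell type were abundant. The 8 matched cardiomyocyte markers summed to 10504 to 10628 FPKM in Trim28 libraries and 11390 to 12180 FPKM in Bgal libraries, with 2 higher and 4 lower. Over all genes tested 20.1% rose and 21.1% fell. Tnnt2 and Myh6 were the largest parts of the sum, and Myh6 did not pass. Myh7 and Actn2 rose 2.20-fold and 1.34-fold. Tnnt2, Pln, Tnni3 and Mb fell to 0.841, 0.699, 0.607 and 0.391 times the Bgal mean. The 10 TGF-beta genes together summed to 416 to 465 FPKM in Trim28 libraries and 208 to 224 FPKM in Bgal libraries. Relative to the Bgal mean, the sum of the TGF-beta genes was 1.95 to 2.18 in the Trim28 libraries. Marker sums there were 1.83 to 1.98 (fibroblast), 1.48 to 1.64 (smooth muscle and mural) and 2.37 to 2.43 (leukocyte and macrophage). Those of endothelial markers were 1.05 to 1.12 and those of cardiomyocyte markers 0.896 to 0.907. Both of these sums mix genes that rose with genes that fell. Within the fibroblast sum Col1a1 alone had 388 ± 7.55 FPKM in Trim28 libraries and 192 ± 14.4 FPKM in Bgal libraries. Col1a1, Col1a2, Col3a1 and Acta2 stand both in a marker list and among the target genes. The part of other cells in the rise of the TGF-beta genes was not tested.

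**Figure D5:**
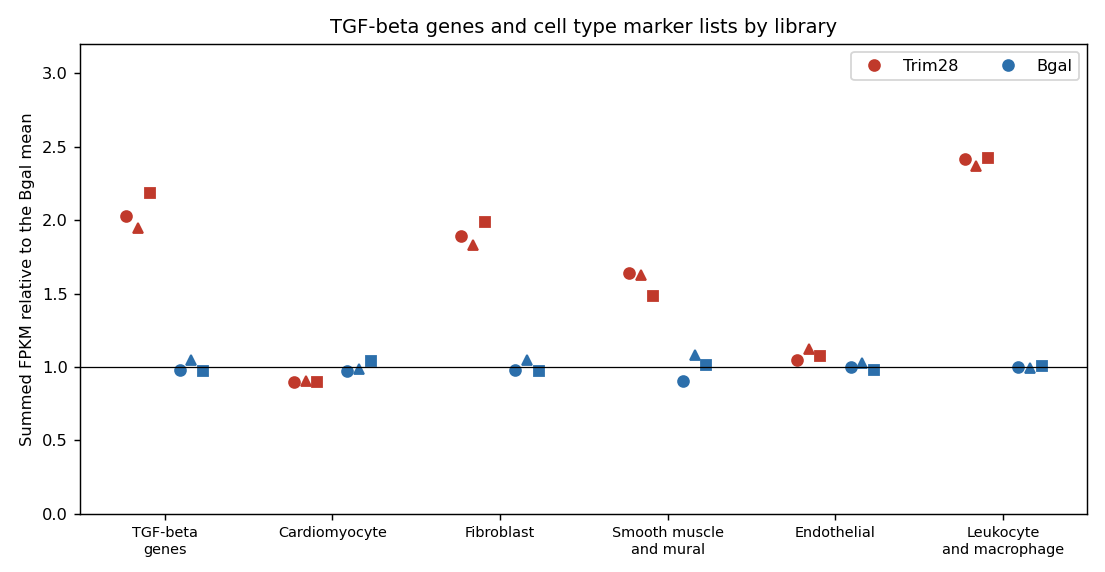
Summed FPKM of the 10 TGF-beta genes and of 5 cell type marker lists in each library, divided by the mean of the Bgal libraries (vertical axis, from 0), with Trim28 libraries in red left of Bgal libraries in blue. Fibroblast, mural and leukocyte sums are higher in the Trim28 libraries, endothelial sums reach 1.12 times and cardiomyocyte sums 0.896 to 0.907 times the Bgal mean.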

How the data were processed

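Per the file headers, the deposited table gives FPKM for each of 34510 genes in 1 column per library, with gene lengths and Ensembl rat identifiers. The authors' tools included HISAT2 2.0.5 and DESeq2, per the submitters' processing notes. No source used here gives the counting tool, strand setting, build or annotation. The table held 0 columns of other samples. FPKM is relative, so a gene that takes more reads lowers all others.

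Groups were read from the sample titles. Genes that reached 0.5 FPKM in 3 or more libraries entered limma 3.58.1 in R 4.3.3, on log2(FPKM + 1) with an intensity trend. Tests were two-sided, on all 6 libraries, which share 1 estimate of the spread. The procedure was also run on simulated data in which a far smaller share of genes changed than passed here. That run is therefore no check of the calls made here. Reads were recovered from FPKM and gene length, and 100% of values above 0 came out whole within 0.01. One read on 1 kilobase was worth 0.0281 to 0.0381 FPKM. Libraries of a group differed beyond sampling noise (chi-square per degree of freedom 6.78 to 18.1). Members and lists were chosen with earlier results of these data known. Named genes are the 10 members, up to 4 per list with the smallest p, 5 genes most correlated with the member of largest change, and Trim28, Cdh5, Pdgfra and Pdgfrb. Pecam1 was also named in the rule and is not analysed here. Vwf, Cldn5, Flt1, Tek, Kdr, Acta2, Des, Abcc9, Rgs5, Kcnj8, Adgre1, Cd3e, Il11, Lefty2, Bmpr1b, Bmp10 and the exceptions marked in the text were chosen after their values were seen. So were the named cardiomyocyte markers and the integrin beta subunit genes. Alternatives were pseudocounts of 0.1 and 0.5, other filters, scalings and variance models, limma-voom on recovered reads, a replicate block and leaving out each library.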

Additional observations from a re-analysis of the deposited data

How the results depend on the processing

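Under all 15 alternatives 9 of the 10 genes rose and 0 fell, with log2 changes between 0.38 for Tgfbr3 and 1.39 for Tgfb2, Tgfb3 and Eng and adjusted p-values up to 0.00865 for the 9. Tgfbr1 stayed between -0.11 and -0.01 and never passed (adjusted p 0.419 to 0.927). Of the pathway genes, 52 to 58 rose and 6 to 9 fell. Of these genes 94 were tested, or 108 with no filter and 90 with a filter of 1 FPKM. Of 570 values for the 38 named genes, 565 kept direction and call, and the other 5 concerned Crebbp and Zfyve16. Labels give both groups replicates 1 to 3 without saying whether the numbers pair them. Same-numbered libraries deviated together with r over 0.1 in 1 pair only (r = -0.02, 0.13 and 0.01). Deviations from means of 3 libraries cannot settle whether they were paired. With a replicate block 9 of the 10 genes and 57 pathway genes rose and 7 fell. The Tgfb1 share difference lay between -4.20 and -3.40 percentage points without each library in turn, and was -2.45 in shares of reads. Depth limits Smad6 and Tgfbr1 most. The 3 libraries per group limit every p.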

Other observations

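Ratios between members, 4 in all, and the sum of the ligand genes were computed after the members' values were seen, each with an exact two-sided permutation p of 0.1 before and after Benjamini-Hochberg adjustment over these 5 measures, the smallest that 3 against 3 libraries allow. Tgfbr2 stood at 10.1 ± 1.08 times Tgfbr1 per length in Trim28 libraries and 6.92 ± 0.694 times in Bgal libraries. Eng stood at 2.54 ± 0.125 times Tgfbr3 in Trim28 libraries and 1.37 ± 0.149 times in Bgal libraries. Smad7 stood at 4.29 ± 0.124 times Tgfbr1 in Trim28 libraries and 2.07 ± 0.436 times in Bgal libraries. In these ratios the 2 groups did not overlap, and higher values were in the Trim28 libraries.

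Some relatives lay under the filter and were not tested, and those named were chosen after their values were seen. Lefty2, an antagonist of nodal, had 18, 22 and 7 reads in the Trim28 libraries and 1, 2 and 6 reads in the Bgal libraries. Bmpr1b, a BMP receptor, had 27, 35 and 15 reads in the Trim28 libraries and 6, 5 and 12 reads in the Bgal libraries. For both, the lowest Trim28 value was in replicate 3, the library with the least Trim28. Bmp10, a cardiac BMP, had 0 reads in the 3 Trim28 libraries and 10, 1 and 4 reads in the Bgal libraries.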
